A study of Mus musculus with 2 samples.

Results

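Glycosaminoglycan genes are the enzymes that build, sulfate and trim heparan and chondroitin chains, together with the membrane proteins that carry heparan chains. They were described here as 51 genes named by symbol, of 43346 mouse genes in the tables. They fell into 5 linker enzymes, 17 heparan chain enzymes, 15 chondroitin chain enzymes, 4 genes of sulfate and sugar supply, 6 glypicans and 4 syndecans. All 51 had a row in both libraries. The tissue was limb of B6NCrl mouse embryos at 15.5 days, both sexes pooled, with no treatment or engineered allele named in the labels. There were 2 biological replicates of this 1 group, a pool of 78 embryos (replicate 1) and a pool of 62 embryos (replicate 2). Each library was made from 10 ng of total RNA longer than 200 nt. The labels name no fore- or hindlimb, and a pool averages over its embryos.

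A glycosaminoglycan chain starts with xylose on a serine of a core protein, continues through a short linker of galactose and glucuronic acid, and then becomes either heparan or chondroitin. Sulfotransferases, epimerases and extracellular sulfatases then set the pattern of charge along the chain. In the limb, heparan chains bind and spread FGF, BMP, Wnt and hedgehog ligands, and sulfated chondroitin on aggrecan gives cartilage its swelling pressure. Inherited defects of many of these genes cause skeletal disease in humans and mice.

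The libraries held 35104685 (replicate 1) and 41757268 (replicate 2) expected counts, which are estimated reads per gene. The 51 genes took 156256 and 195015 of them. All 7 limb mesenchyme markers and all 9 cartilage markers listed reached 10 TPM (a measure of transcript abundance corrected for gene length and depth) in both libraries. Umod, a kidney gene, was listed at 0 in both. Neurod1, a neuronal regulator, had 1 count in replicate 2 alone (0.01 TPM). The liver gene Alb had 2.14 and 10.28 TPM. Levels below are the TPM of replicate 1 and then of replicate 2, or their mean with the SD (n = 2). With a single group there is no comparison of conditions and no p-value.

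Sequence before the start of 4 members is shown to set their promoters side by side: Gpc3 and Gpc5, the highest and the lowest glypican, and the paralogues Papss1 and Papss2. Each line is the 250 bases before the RefSeq start site on GRCm38.p6, 5′ to 3′ along the gene. Capitals mark 3 motifs found on either strand. The TATA box core was searched as TATAAA. The GC box was searched as GGGCGG. The remaining motif, the CCAAT box, was searched by those letters, and no matches overlap in the windows shown.
Gpc3, chrX:52613975-52614224, minus strand: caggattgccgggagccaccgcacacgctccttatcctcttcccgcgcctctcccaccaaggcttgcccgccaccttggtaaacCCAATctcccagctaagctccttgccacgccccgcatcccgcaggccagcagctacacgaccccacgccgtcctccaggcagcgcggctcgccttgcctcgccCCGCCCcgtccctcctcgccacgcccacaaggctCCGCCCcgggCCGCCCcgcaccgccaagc
Gpc5, chr14:115091965-115092214, plus strand: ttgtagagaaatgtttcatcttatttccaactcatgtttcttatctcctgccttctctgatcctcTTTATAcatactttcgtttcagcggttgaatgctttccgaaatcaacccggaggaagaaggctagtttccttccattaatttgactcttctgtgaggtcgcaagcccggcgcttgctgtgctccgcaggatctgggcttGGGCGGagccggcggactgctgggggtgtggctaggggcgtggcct
Papss1, chr3:131564518-131564767, plus strand: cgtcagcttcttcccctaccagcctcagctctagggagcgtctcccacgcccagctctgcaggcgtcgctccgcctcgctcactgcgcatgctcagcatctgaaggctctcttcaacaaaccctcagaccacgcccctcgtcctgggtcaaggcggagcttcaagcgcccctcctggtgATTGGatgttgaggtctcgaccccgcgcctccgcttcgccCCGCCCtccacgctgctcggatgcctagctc
Papss2, chr19:32619755-32620004, plus strand: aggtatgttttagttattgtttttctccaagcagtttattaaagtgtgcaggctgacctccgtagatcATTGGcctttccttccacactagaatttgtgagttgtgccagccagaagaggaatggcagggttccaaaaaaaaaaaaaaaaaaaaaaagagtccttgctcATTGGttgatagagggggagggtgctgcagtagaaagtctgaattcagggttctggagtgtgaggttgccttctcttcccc

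These windows hold 25 CpG pairs before Gpc3, 12 before Gpc5, 20 before Papss1 and 1 before Papss2. The Papss2 window lies inside the annotated gene span, directly before the start of the only Papss2 transcript that was quantified. The span begins upstream of it, at 32595790, and use of a start there could not be judged. A RefSeq start site was found for 39 of the 51 members, and their windows held a median of 16 CpG pairs, against 15 over 13699 windows of protein-coding genes at 1 TPM or more. The GC box stood in 69.2% of the members' windows and in 56.4% of those 13699 windows. The CCAAT box stood in 43.6% and 34.9%, and the TATA core in 7.69% and 6.93%. Over all 32851 RefSeq windows the shares were 32.7% for the GC box, 33.8% for the CCAAT box and 12.4% for the TATA core. These sets are not alike. Each member gave a single window, the nearest to the start of its most abundant transcript, while the compared sets hold every RefSeq window of a gene. For Ndst3 and Ndst2 that window lay 18376 and 4235 bases away. Members under 1 TPM were also kept. A match describes letters only and says nothing of binding.

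Of the 51 genes, 37 reached 10 TPM in both libraries, 46 reached 1 TPM in both, and 3 stayed under 1 TPM in both. By mean TPM, 38 of the 51 were at 10 or more, against 9480 of all 43346 mouse genes. At a mean of 1 or more were 48 of the 51, against 15571 of all. The sets are not alike, since the 43346 also hold pseudogenes, microRNAs and antisense genes, while the members encode proteins. The summed TPM of the 51 genes was 2445 and 2489, or 0.258% and 0.262% of the TPM of all mouse genes. Glypicans made up 33.6% ± 0.416 of that sum and syndecans 19.4% ± 0.197. Heparan chain enzymes made up 20.8% ± 0.320, chondroitin chain enzymes 10.8% ± 0.0680, the supply genes 11.4% ± 0.152 and linker enzymes 4.03% ± 0.0170. Glypicans held the largest sum, a place that rested on Gpc3 (76.1% of it), and linker enzymes the smallest. In a whole tissue, fewer cells of a type and less RNA per cell cannot be told apart.

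**Figure D1:**
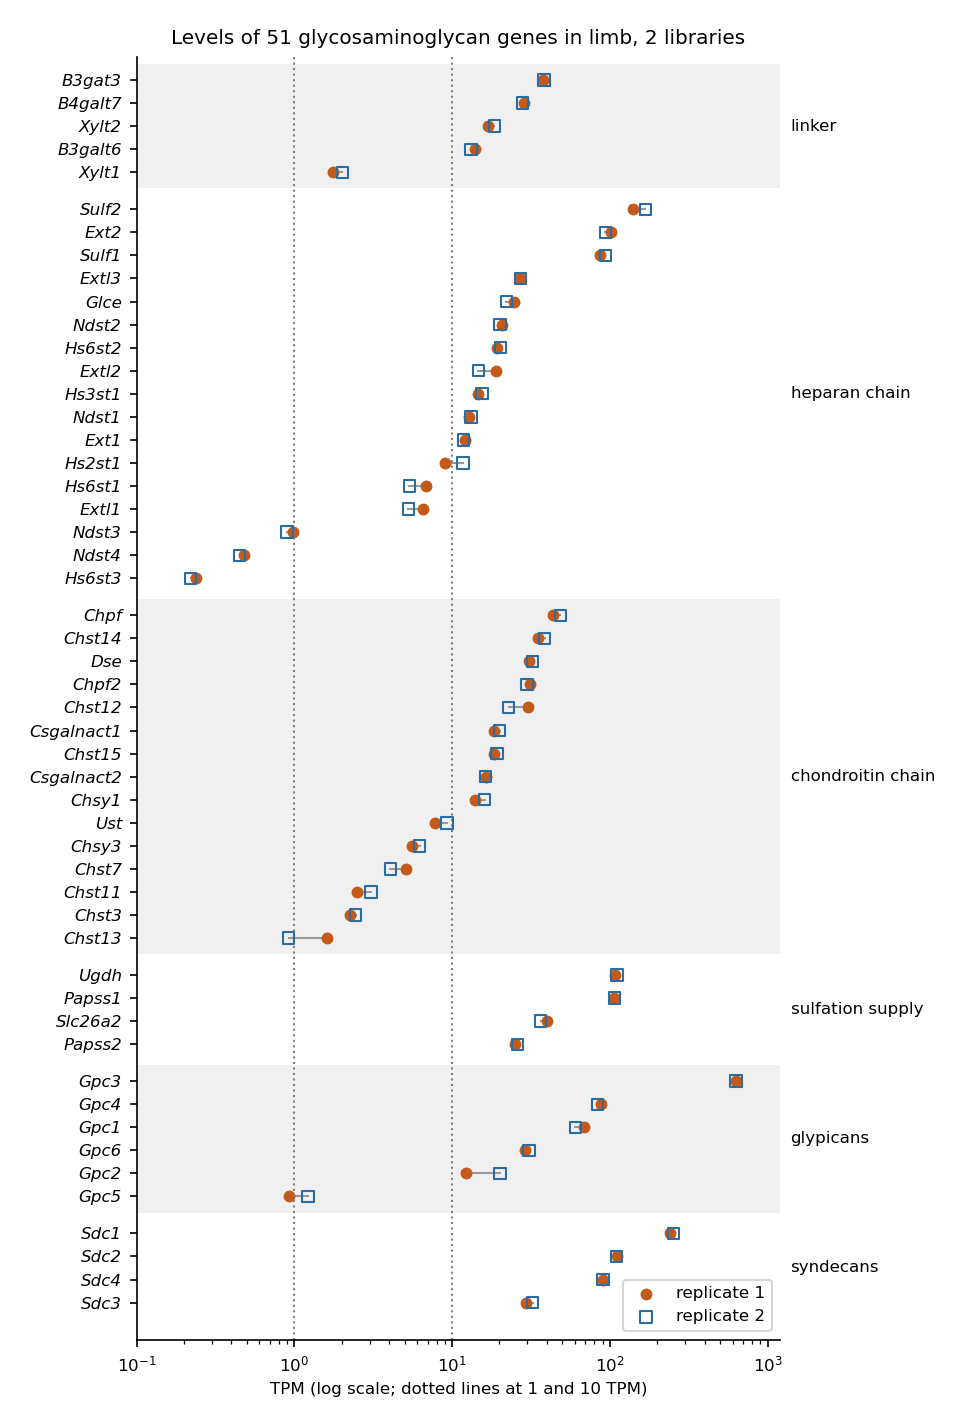
TPM of the 51 genes (log axis) by subgroup, each gene ordered by its mean; filled circles are replicate 1 and open squares replicate 2. Gpc3 lies highest at 629 and 632 TPM, Hs6st3 lowest at 0.24 and 0.22 TPM, and the 2 libraries sit close together for most genes.

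Linker enzymes were moderately expressed apart from Xylt1. Xylt2, which transfers the xylose that starts a chain, had 16.86 and 18.58 TPM. Its paralogue Xylt1 had 1.76 and 2.02 TPM, on 99 and 155 counts. Xylt2 therefore exceeded Xylt1 8.96-fold (log2 3.16 ± 0.03, SD, n = 2). Each ratio was set beside a yardstick, the log2 difference between the libraries within which 95% of single genes of a similar level lay, and this one was beyond it in both libraries. The yardstick does not cover errors that both libraries share, such as those of gene length or shared exons. B3gat3, which adds the glucuronic acid that ends the linker, was the highest of the group with 37.66 and 38.24 TPM. B4galt7, which adds the first galactose, had 28.71 and 28.01 TPM, and B3galt6, which adds the next one, had 13.91 and 13.23 TPM. The order B3gat3, B4galt7, B3galt6 was the same in both libraries, and both ratios to B3galt6 were beyond the yardstick (2.78-fold and 2.08-fold). With counts not divided by length both fell within it (log2 0.45 for B3gat3 and 0.39 for B4galt7 over B3galt6). Fam20b, the kinase that phosphorylates the linker xylose, and Pxylp1, the phosphatase that reverses this, had 25.5 ± 1.70 and 22.6 ± 0.453 TPM.

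The heparan polymerase was uneven at the RNA level. Ext1 and Ext2 encode the partners of the complex that extends heparan chains, and loss of either causes multiple cartilage-capped bone outgrowths in humans. Ext2 (ENSMUSG00000027198.12, chromosome 2, 93661028 to 93822568, GRCm38) had 102.3 and 93.89 TPM. Ext1 had 12.08 and 11.79 TPM. Ext2 was 8.15-fold higher (log2 of Ext1 over Ext2 -3.03 ± 0.06, yardstick 0.56). Among their relatives, Extl3, which adds the first heparan sugar to the linker, had 26.93 and 27.24 TPM. Extl2, which acts on the linker and can stop a chain, had 19.05 and 14.66 TPM, and Extl1, which has sugar transfer activity of the same kind, had 6.58 and 5.29 TPM (2.80-fold under Extl2; log2 0.96 for Extl2 over Extl1 by undivided counts, within the yardstick). Extl3 exceeded Extl2 1.62-fold, which was within the yardstick of 0.51 in replicate 1 (log2 0.50) and beyond it in replicate 2 (log2 0.89).

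In the N-sulfation and 6-O-sulfation families of heparan, 2 paralogues held nearly all of the summed TPM. Ndst enzymes replace the acetyl group of glucosamine with sulfate. Ndst2 had 20.68 and 20.16 TPM and Ndst1 had 12.85 and 13.16 TPM, so that they held 58.6% ± 0.675 and 37.3% ± 0.872 of the family. Ndst3 had 0.98 and 0.90 TPM and Ndst4 0.48 and 0.45 TPM. The order of the leading pair depends on gene length: Ndst1 was lower per length (log2 -0.65 ± 0.05, yardstick 0.47), while its longer transcript gathered more reads (1712 and 2142 counts) than Ndst2 (1479 and 1762 counts). Glce, the epimerase that turns glucuronic into iduronic acid, had 24.62 and 22.07 TPM. Hs2st1, which sulfates that iduronic acid, had 8.97 and 11.72 TPM, lower than Glce in both libraries (2.26-fold, log2 of Hs2st1 over Glce -1.18 ± 0.38, yardstick 0.57). Hs2st1 over Hs6st1 was within the yardstick in replicate 1 (log2 0.38 against 0.96) and beyond it in replicate 2 (1.11).

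The 6-O-sulfation of glucosamine rested on Hs6st2 by level, with 19.35 and 20.31 TPM. Hs6st1 had 6.88 and 5.36 TPM, and Hs6st3 had 0.24 and 0.22 TPM on 7 and 8 counts, for which exact Poisson limits (95%, counting error only) were 0.0965 to 0.494 and 0.095 to 0.433 TPM. Hs6st2 exceeded Hs6st1 3.23-fold (log2 of Hs6st1 over Hs6st2 -1.69 ± 0.30, yardstick 0.96). Hs3st1, whose product binds antithrombin, had 14.67 and 15.48 TPM. Of the 6 other 3-O-sulfotransferases listed, Hs3st3b1 was highest (12.5 ± 1.66 TPM), then Hs3st6 (4.44 ± 0.346 TPM) and Hs3st3a1 (1.94 ± 0.283 TPM). Hs3st2 and Hs3st4 were under 1 TPM in both libraries.

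The extracellular sulfatases that remove 6-O-sulfate were far above the enzymes that add it. Sulf2 (ENSMUSG00000006800.9, chromosome 2, 166073089 to 166155663) had 140.5 and 167.8 TPM, the highest of the heparan chain enzymes. Sulf1 (chromosome 1, 12692277 to 12861192) had 86.79 and 93.82 TPM. Sulf2 exceeded Sulf1 1.70-fold (log2 of Sulf1 over Sulf2 -0.77 ± 0.10, yardstick 0.36). With counts not divided by length the mean log2 was -0.37, only just beyond the yardstick. Summed, the 2 sulfatases had 227.3 and 261.6 TPM, against 26.47 and 25.89 TPM for the 3 Hs6st genes. The sulfatase sum was thus 8.59-fold and 10.1-fold larger (log2 3.22 ± 0.17, SD, n = 2). These are RNA levels and do not give enzyme activity.

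**Figure D2:**
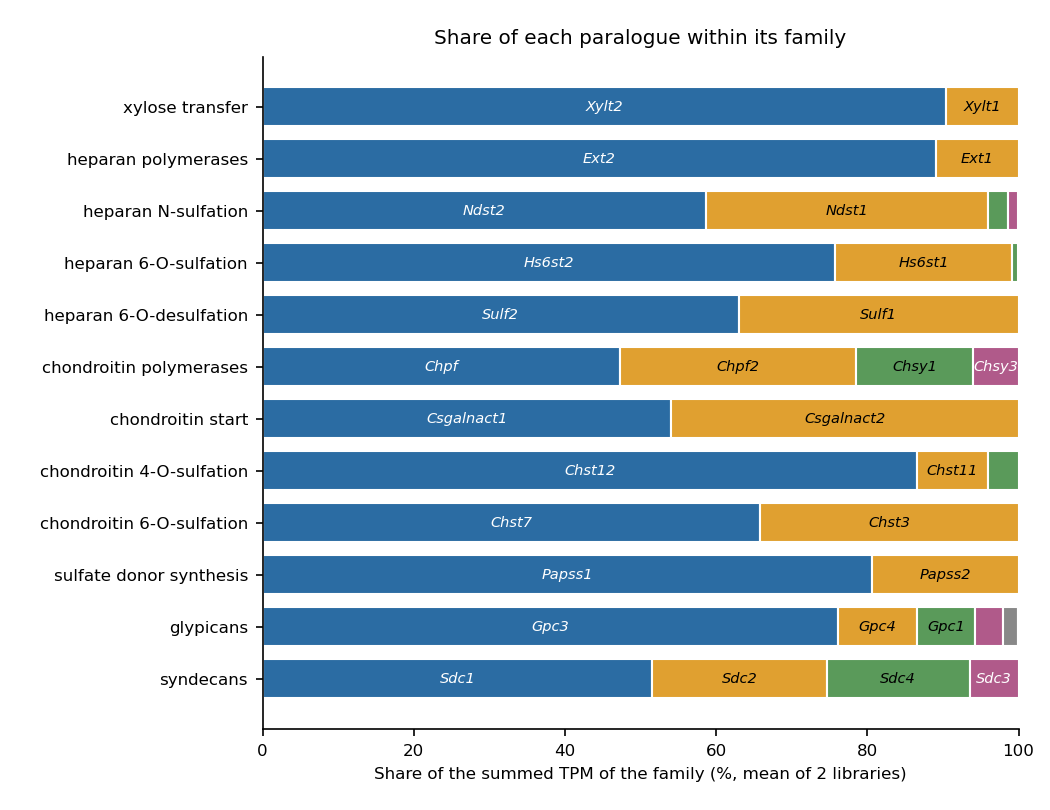
Share of each paralogue in the summed TPM of its family (%, mean of 2 libraries), largest at the left; unlabelled segments are Ndst3, Ndst4, Hs6st3, Chst13, Gpc6, Gpc2 and Gpc5, each under 5%. Xylt2, Ext2 and Chst12 hold over 85% of their families, whereas Csgalnact1 and Csgalnact2 are near even.

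Chondroitin synthesis was spread over more genes. Chains are started by Csgalnact1, with 18.43 and 20.06 TPM, and by Csgalnact2, with 16.35 and 16.36 TPM. This pair did not differ beyond the yardstick (1.18-fold, log2 0.23 ± 0.09, yardstick 0.47). Of the 4 polymerase genes, Chpf had 43.79 and 48.53 TPM and Chpf2 31.11 and 29.81 TPM (Chpf 1.51-fold higher, log2 0.60 ± 0.15, yardstick 0.39). That ratio fell within the yardstick when only protein-coding transcripts were counted (log2 0.27), since 79.6% of Chpf but all of Chpf2 was coding, and when counts were not divided by length (log2 0.05). Chsy1, the synthase proper, had 13.99 and 16.08 TPM, 2.51-fold more than Chsy3 with 5.60 and 6.23 TPM. The 4 together summed to 94.49 and 100.7 TPM, close to the 114.4 and 105.7 TPM of Ext1 and Ext2 together (log2 of heparan over chondroitin polymerases 0.17 ± 0.15). Ext2 made up 89.1% of the heparan sum and its partner Ext1 10.9%, so the sums do not give amounts of polymerase complex. Part of the Chpf2 exons, 44.1%, lies under exons of Smarcd3 on the opposite strand (28.64 and 31.8 TPM), and the strandedness of the counting is not given in the sources used here.

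Chondroitin sulfotransferases differed widely in level. Chst12, a 4-O-sulfotransferase, had 30.23 and 22.90 TPM and held 86.6% ± 1.97 of its family. Chst11, another 4-O-sulfotransferase and one that mouse growth plates require, had only 2.51 and 3.06 TPM, 9.20-fold less than Chst12 (log2 of Chst11 over Chst12 -3.20 ± 0.48, yardstick 1.33). Chst13, of the same activity, had 1.62 and 0.92 TPM on 56 and 39 counts, and its ratio to Chst11 was within the yardstick. With counts not divided by length, log2 of Chst11 over Chst13 was 2.99, beyond the yardstick of 1.90. The 6-O-sulfotransferases were low as well, Chst7 with 5.08 and 4.06 TPM and Chst3, mutated in a human spondyloepiphyseal dysplasia, with 2.26 and 2.45 TPM. The order of Chst3 and Chst7 was within the yardstick of 1.87 (log2 -0.92 ± 0.30), and by reads, not divided by length, Chst3 was ahead (302 and 399 counts against 239 and 233 for Chst7). Summed, the 4-O enzymes were 4.40-fold above the 6-O enzymes (log2 2.14 ± 0.13).

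Dermatan enzymes act where glucuronic acid of chondroitin is turned into iduronic acid. Chst14, the dermatan 4-O-sulfotransferase, had 34.86 and 38.68 TPM, 12.8-fold above Chst11. The epimerase Dse had 30.90 and 32.34 TPM, and its relative Dsel, not among the 51, had 20.77 and 21.95 TPM (Dse over Dsel log2 0.56, or 1.39 over protein-coding transcripts alone). Chst15, which adds a further sulfate to 4-O-sulfated units, had 18.35 and 19.26 TPM, 7.70-fold above Chst3. Ust, which sulfates the uronic acid, had 7.81 and 9.28 TPM. Chst9, a further 4-O-sulfotransferase, was under 1 TPM in both libraries.

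All 4 supply genes exceeded 25 TPM in both libraries. Ugdh, which makes the glucuronic acid donor of both chain types, had 108.6 and 111.1 TPM. Papss1 and Papss2 make PAPS, the sulfate donor of every sulfotransferase above. Papss1 had 106.6 and 106.8 TPM and Papss2 25.13 and 25.97 TPM, so that Papss1 was 4.16-fold higher (log2 of Papss2 over Papss1 -2.06 ± 0.03, yardstick 0.51). Papss2 is the gene mutated in the brachymorphic mouse, which has short limbs. Slc26a2, the sulfate transporter of chondrocytes whose loss causes diastrophic dysplasia in humans, had 40.22 and 36.39 TPM, while Slc26a1 was under 1 TPM in both. Of 12 other donor and transporter genes, 9 reached 10 TPM in both libraries, led by Ugp2 (92.8 ± 13.6 TPM), the Golgi PAPS transporter Slc35b2 (78.5 ± 2.27 TPM) and Uap1 (63.1 ± 1.07 TPM).

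Glypicans, which are anchored to the membrane by lipid, were dominated by Gpc3, the gene mutated in a human overgrowth syndrome. Gpc3 (ENSMUSG00000055653.9, chromosome X, 52272426 to 52613950) had 628.9 and 631.8 TPM, rank 206 of all mouse genes. It made up 76.1% ± 0.228 of the glypican sum. Gpc4 had 88.58 and 83.95 TPM and Gpc1 68.17 and 60.52 TPM, and these 2 ranges did not overlap. Gpc6 had 29.21 and 30.74 TPM, Gpc2 12.27 and 20.13 TPM, and Gpc5 0.93 and 1.22 TPM on 49 and 73 counts. Gpc1 exceeded Gpc2 4.07-fold, but unevenly, by log2 2.46 in replicate 1 and 1.58 in replicate 2. Over protein-coding transcripts alone the mean log2 ratio was 3.49.

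Neighbouring glypican genes had very different levels. Gpc4 and Gpc3 lie on the same strand of chromosome X, 107.2 kb apart with no protein-coding gene between, and Gpc3 was 7.30-fold higher (log2 2.87 ± 0.06, yardstick 0.52). Gpc5 and Gpc6 lie on the same strand of chromosome 14, 400.1 kb apart with no protein-coding gene between, and span 1433 kb and 1051 kb. Gpc6 was 25.8-fold higher than Gpc5 (log2 4.69 ± 0.20, yardstick 1.90). Hs6st2 lies 371.2 kb from Gpc4 on the same strand. Notum, which releases glypicans from the membrane, had 4.04 and 4.39 TPM.

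All 4 syndecans, the transmembrane carriers, exceeded 25 TPM. Sdc1, the main syndecan of epithelia, had 240.7 and 253.2 TPM and made up 51.6% ± 0.684 of the family. Keratinocyte markers (5) summed to 3336 and 3153 TPM, led by Krt14. Sdc2, typical of mesenchyme, had 110.6 and 110.4 TPM, and the widely used Sdc4 had 90.37 and 90.45 TPM. Sdc2 over Sdc4 was within the yardstick (log2 0.29 against 0.36), but beyond it with counts not divided by length (log2 0.74). Sdc3 was lowest with 29.47 and 32.44 TPM, 3.56-fold under Sdc2. Glypicans together exceeded syndecans together 1.73-fold (log2 0.79 ± 0.03). This order rested on Gpc3, which held 76.1% of the glypican sum. Among 19 other core proteins listed, 12 reached 10 TPM in both libraries, led by Dcn (785 ± 29.6 TPM), Bgn (225 ± 30.1 TPM) and Col18a1 (78.4 ± 6.12 TPM), while the brain proteoglycans Bcan and Ncan were under 1 TPM.

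**Figure D3:**
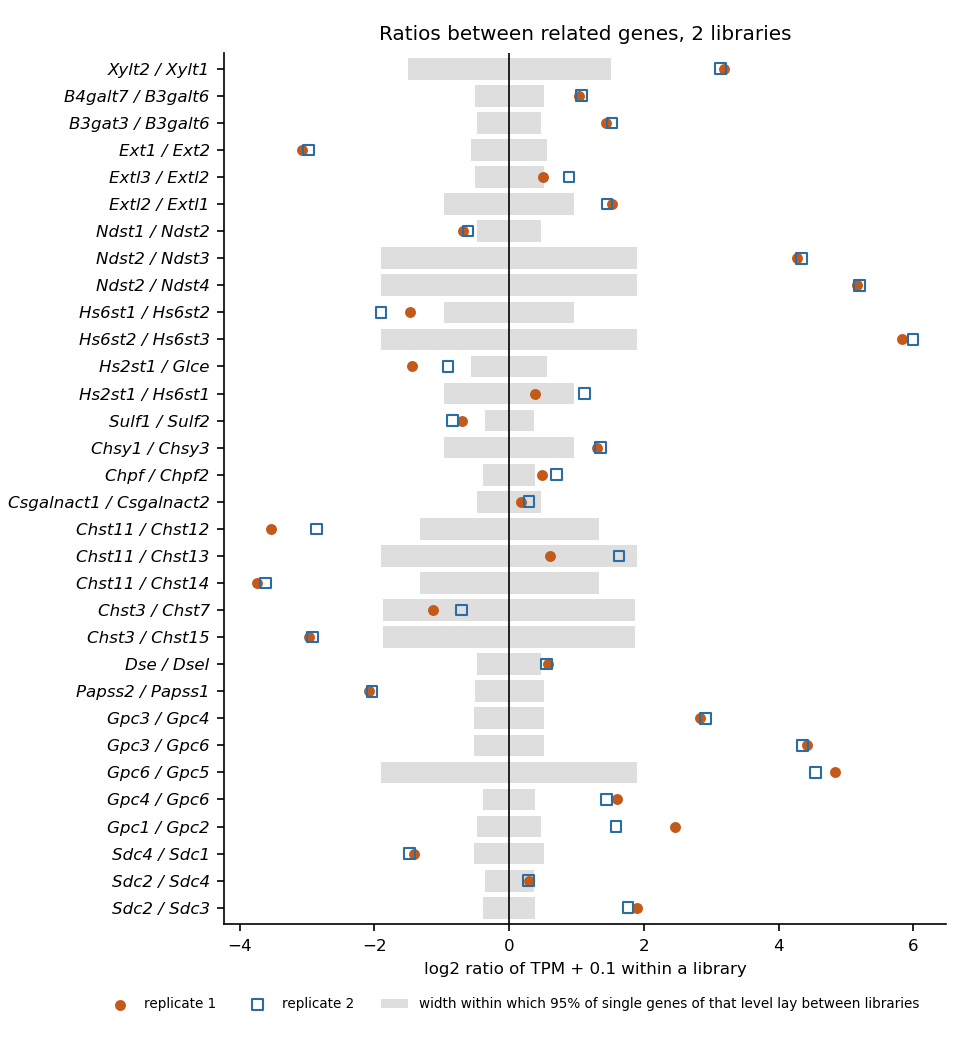
log2 ratio of TPM + 0.1 between 32 pairs of related genes in replicate 1 (circles) and replicate 2 (squares); grey bars span the yardstick to either side of 0. In 26 pairs both libraries lie outside the grey bar on the same side, and 6 pairs do not.

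Genes that break chains down were also expressed: 13 of 18 reached 10 TPM in both libraries and all 18 reached 1 TPM. Among the highest were Hexa (88.6 ± 13.0 TPM) and Hyal2 (85.0 ± 3.36 TPM). Of 5 keratan sulfate genes, B4galt1 (45.3 ± 5.49 TPM) and Chst5 (16.5 ± 1.70 TPM) reached 10 TPM in both libraries, and Chst2 followed with 7.94 ± 0.742 TPM.

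Transcript tables gave 28 members with a mean of at least 10 TPM and 2 or more annotated transcripts. The most abundant transcript held a median of 80.9% of its gene, at least 90% in 11 genes and under 60% in 8 genes. Sulf1 was split over several coding transcripts, with 37.1% and 41.4% in Sulf1-202, and Sulf2 had 41.1% ± 0.337 in Sulf2-202. Gpc6 was split evenly between Gpc6-201 (40.9% ± 0.0590) and Gpc6-202 (39.9% ± 0.307). Extl2 (58.7% ± 10.2), Glce (55.3% ± 8.78) and Slc26a2 (35.8% ± 1.20) also had a leading transcript under 60%. The leading transcript was the same in both libraries in 26 of the 28, the exceptions being Slc26a2 and Gpc2. These shares are estimates, since paralogous and overlapping transcripts share reads.

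For Ext1 the most abundant transcript by TPM was not a coding one. Ext1-203, 1554 nt long and annotated as a target of nonsense-mediated decay, had 6.37 TPM (deposited interval of the posterior mean 4.93 to 7.40) and 5.63 TPM (4.39 to 6.54), 50.2% ± 3.49 of the gene. The coding transcript Ext1-201, 7663 nt long, had 3.90 TPM (3.47 to 4.14) and 4.22 TPM (3.82 to 4.44). TPM is per length, so the order of these transcripts by reads can differ. Counting only transcripts annotated as protein-coding, an alternative chosen after these values were seen, log2 of Ext1 over Ext2 was -4.53, against -3.03 for all transcripts. Gpc2 also had a low coding share, 27.1% in replicate 1 and 44.9% in replicate 2. In replicate 1 it was led by Gpc2-207, annotated as a retained intron (39.9%). The coding share of Ugdh was 67.4% and 63.6%. A Ugdh transcript absent from GENCODE M21 (31.2% and 34.7%) was left out of the coding share for want of a type. Ndst3, under 1 TPM, had a coding share of 32.65% in replicate 1 and 100% in replicate 2.

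**Figure D4:**
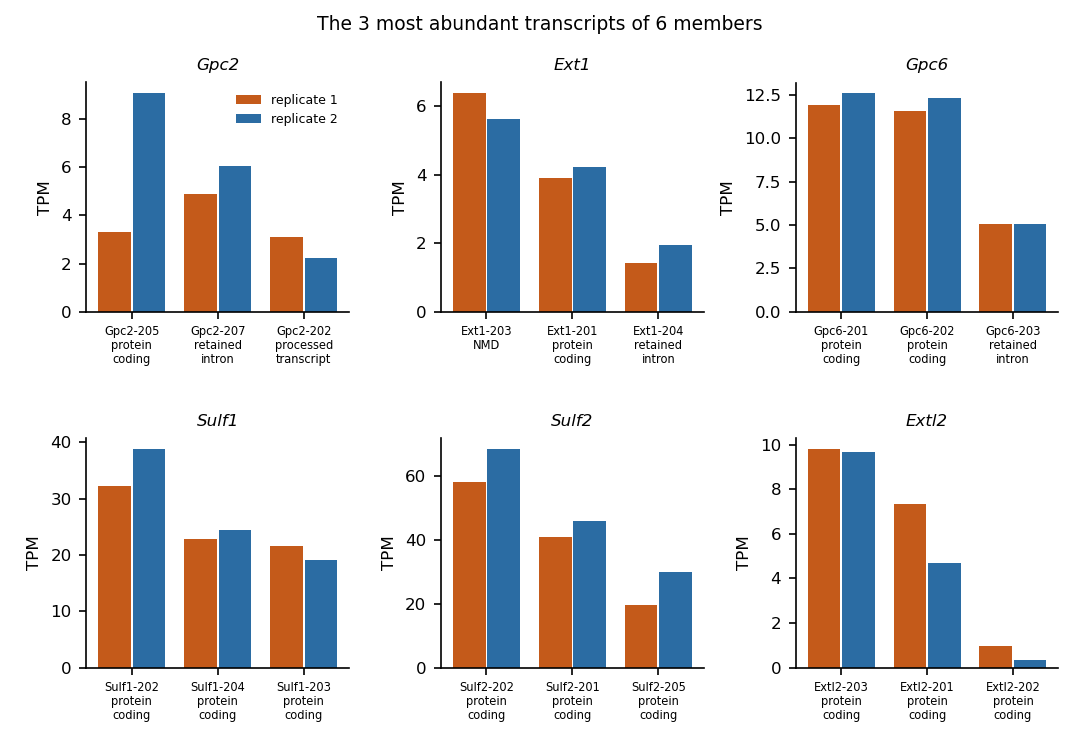
TPM of the 3 most abundant transcripts of 6 members in replicate 1 (left bar of each pair) and replicate 2 (right bar), with the GENCODE M21 type under each name (NMD, nonsense-mediated decay). Gpc2-205 has 3.32 and 9.04 TPM, and Ext1-203 exceeds the coding Ext1-201 in both.

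Between the pools the glycosaminoglycan genes differed by about as much as other genes, but a larger share of them was higher in replicate 2. This did not hold among the heparan chain enzymes. Of 48 with a mean of at least 1 TPM, 0 differed over 2-fold (on TPM + 0.1, with the median gene set to 0), where 3.63% of all 15571 genes at that level did. Over 25% apart were 7 of the 48, or 14.6%, against 19.8% of all genes. At a mean of 10 TPM or more, 4 of 38 members (10.5%) were over 25% apart, against 9.64% of all 9480 genes at that level, and 0 were over 2-fold apart, against 1.32%. The median member differed 1.09-fold in either direction and the median gene 1.10-fold. On the log2 scale the members' median, replicate 2 over replicate 1, was 0.06 (quartiles -0.04 and 0.16), against 0 for all genes (quartiles -0.13 and 0.14). Higher in replicate 2 were 32 of the 48 members, against 7785 of all 15571 genes, which the centring splits evenly. At a mean of 10 TPM or more it was 26 of 38 members, against 4550 of all 9480 genes. Over all 51 members, those under 1 TPM included, 7 of 17 heparan and 11 of 15 chondroitin chain enzymes were higher in replicate 2. So were 4 of 4 syndecans, 4 of 6 glypicans, 3 of 4 supply genes and 3 of 5 linker enzymes.

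Gpc2 had the largest difference of the 48 members, hardly larger than that of Chst13 (centred log2 0.733 against -0.731). Gpc2 had 12.27 and 20.13 TPM, on 756.7 and 1571 counts, a centred difference of 1.66-fold (log2 0.73, yardstick 0.47). It was the only one of the 48 beyond its yardstick, which by its construction 5.01% of all genes exceed. Its coding transcript Gpc2-205 had 3.32 TPM (1.89 to 3.79) and 9.04 TPM (7.16 to 9.75), deposited intervals that do not overlap. Its other transcripts together had 8.95 and 11.09 TPM. Gpc2 is known as a glypican of developing neurons, and 5 neuron and Schwann cell markers summed to 32.46 and 29.54 TPM, with 3 of 5 higher in replicate 2 after centring and none at 0. Their part in the Gpc2 difference was not tested. Of the Gpc2 exon bases, 55.6% are shared with Gm43720, a gene on the same strand without a row in these tables, so that part of the reads may belong to either.

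The other members over 25% apart were all within their yardsticks. Chst13 (1.66-fold), Chst12 (1.30-fold), Extl2 (1.28-fold) and Hs6st1 (1.26-fold) were higher in replicate 1, and Hs2st1 (1.32-fold) and Gpc5 (1.30-fold) in replicate 2. Muscle and bone markers differed between the pools. The 7 muscle markers, led by Acta1, were all higher in replicate 1 and summed to 4527 TPM there and 1285 TPM in replicate 2, and the 6 bone markers were all higher in replicate 1 (763.3 and 401.4 TPM). Cartilage markers summed to 1367 and 1435 TPM (7 of 9 higher in replicate 2), and limb mesenchyme markers to 195.2 and 245.5 TPM (6 of 7 higher in replicate 2). The 5 endothelial and 5 macrophage markers were also all higher in replicate 1 (sums of 216.7 and 185.1 TPM, and of 277.7 and 233.1 TPM). No listed muscle, bone, cartilage or mesenchyme marker was at 0, and their part in the members' differences was not tested.

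**Figure D5:**
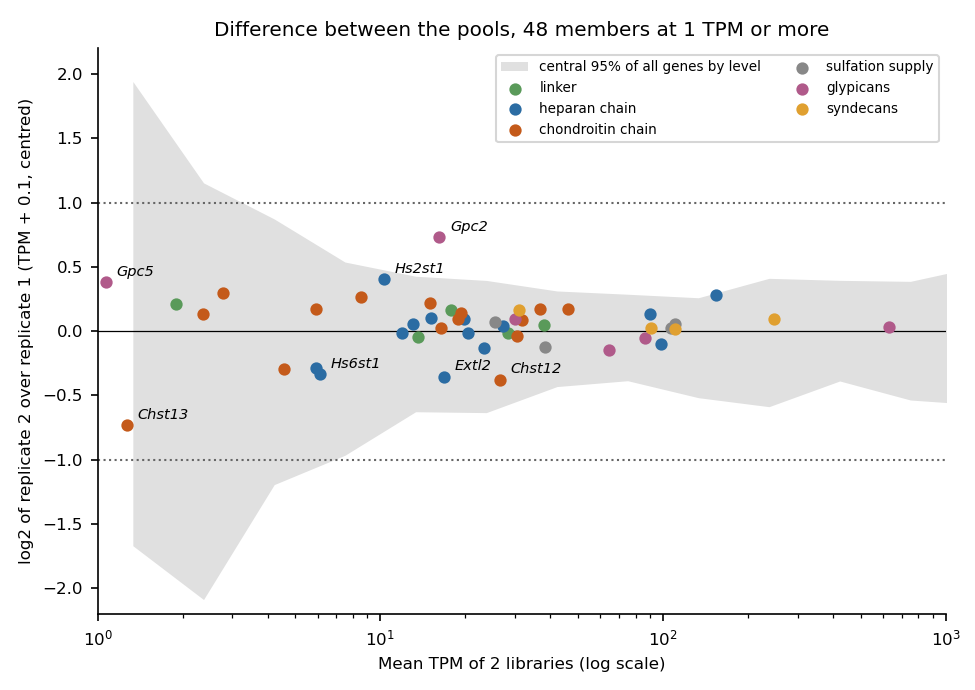
Difference between the pools (log2, replicate 2 relative to replicate 1, centred) against mean TPM (log axis) for the 48 members at 1 TPM or more; the grey band is the central 95% of all genes by level and dotted lines mark 2-fold. No member passes 2-fold, and Gpc2 at log2 0.73 lies well above the band. The band takes each side separately and is not the yardstick, so Sulf2 (0.28, yardstick 0.36) lies near its upper side.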

How the data were processed

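Total RNA of mouse limb was sequenced in 2 libraries of 1 group. Reads were mapped to mm10 per the labels' descriptions, with GENCODE M4 as annotation in the records deposited beside the tables. The aligner, the counting program and the use of strand were not given in the sources used here. For each library the authors deposited gene and transcript tables. Per the file headers these hold expected counts (estimated, not whole numbers), TPM, posterior mean TPM, FPKM and intervals of TPM, given here as score bounds deposited per feature. The deposited transcript tables add a percent column (share of a gene by isoform). TPM is scaled over all rows, 97 spike-ins included (2.28% and 2.26% of counts). The effect of the low input, 10 ng of RNA, on the spread between libraries was not tested.

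Symbols were mapped to gene identifiers by GENCODE M21 (GRCm38), with versions dropped. Members, gene lists, pairs and naming rules were chosen with earlier results of these data known. Every member is named. From other pathway lists the 3 highest genes and those under 1 TPM in both libraries are named, except 1 gene that is not reported here. No significance test was run, since there is 1 group. Ratios within a library used TPM + 0.1. Differences between the pools were centred on the median gene at 1 TPM or more. Yardsticks used 20 bins of mean TPM over genes at that level. Ndst3, Ndst4 and Hs6st3 lie below it and took the yardstick of the lowest bin (1.90). A pair took the wider yardstick of its 2 genes. TMM factors for 1 alternative came from edgeR 4.0.16 (R 4.3.3) on rounded expected counts, genes with 10 or more counts in both libraries. Other steps used Python 3.11.15, numpy 2.4.6, pandas 2.3.3, scipy 1.17.1 and matplotlib 3.10.9. Counts ranged from 35104685 to 41757268 per library, and 3 counts, the limit that 0 counts allows, equal 0.0855 and 0.0718 CPM. Rows with numeric identifiers (26248) were not used.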

Additional observations from a re-analysis of the deposited data

How the results depend on the processing

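The count of members at 10 TPM or more in both libraries was 37. It was 30 with deposited FPKM, 38 with TPM rescaled over protein-coding genes, and 37 with posterior mean TPM. The count at 1 TPM or more was 46 and ranged up to 49 under these settings. No member was over 2-fold apart without a filter, at 10 TPM or more, with a pseudocount of 1, without centring or with TMM scaling, and the members' median log2 difference lay between 0.03 and 0.06 in all of them. With either library alone the count at 10 TPM was 37 or 38. Rescaling over protein-coding genes multiplied the subgroup sums by 1.2. Of 32 ratios, 2 changed sign when counts were not divided by length, Ndst1 over Ndst2 (log2 0.25 against -0.65) and Chst3 over Chst7 (0.56 against -0.92); the numerator of each has the longer transcript. Of the 26 ratios beyond the yardstick, 5 fell within it or changed sign by undivided counts, judged by the mean of the 2 libraries. These were B4galt7 and B3gat3 over B3galt6, Extl2 over Extl1, Ndst1 over Ndst2 and Chpf over Chpf2. The last did so over protein-coding transcripts as well. Sulf1 over Sulf2 was only just beyond its yardstick by undivided counts (mean log2 -0.37 against 0.36). In the other direction, some ratios outside the 26 passed their yardsticks by undivided counts, judged the same way. These were Extl3 over Extl2 (log2 1.80 against 0.51) and Chst11 over Chst13 (2.99 against 1.90). Sdc2 over Sdc4 (0.74 against 0.36) and Hs2st1 over Hs6st1 (1.13 against 0.96) did so too. By undivided counts 13 of the 32 ratios moved by over 1.5 times. Over protein-coding transcripts 4 did, Ext1 over Ext2, Ndst2 over Ndst3 (log2 4.98 against 4.30), Dse over Dsel and Gpc1 over Gpc2. With a pseudocount of 1 it was also 4, Ndst2 over Ndst3 again, Ndst2 over Ndst4, Hs6st2 over Hs6st3 and Gpc6 over Gpc5. Each of these has a denominator near 1 TPM or lower. None of the 32 changed sign with posterior mean TPM, a pseudocount of 1, coding transcripts alone or either library alone. Single ratios still moved by up to 1.83 on the log2 scale with the pseudocount. Transcript shares differed from the deposited percent column by at most 0.046. No paired analysis was possible because there is 1 group. Depth limits Hs6st3 most, with 7 and 8 counts.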
